A study of Mus musculus with 12 samples.

Results

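Meg3, Rian and the small RNAs annotated inside Rian were followed across mouse embryonic stem cells (ESCs) lacking the DNA methyltransferase Dnmt1, with or without the small RNA enzyme Dicer. Members were taken by name and position on chromosome 12. They were the Meg3 row, the Rian row, and the rows named Mir341, Mir370, AF357355 or SNORD113 inside the Rian interval, which gave 16 of the 32101 rows of the table. SNORD113 is the name of 11 of these rows, and the copies are numbered here from 1 to 11 in the 5′ to 3′ direction of Rian. Small RNA sequencing libraries fell into 3 groups: 6 WT libraries (numbers 1 to 3, each with letters A and B), 2 Dnmt1 KO libraries (A and B) and 4 Dicer/Dnmt1 KO libraries (numbers 1 and 2, whose values are always given in the order 1A, 1B, 2A, 2B). The labels give all of them as ESCs on an E14 background, with the genotypes Wildtype, Dnmt1 -/- and Dicer/Dnmt1 -/-. The titles of WT 2A and 2B name E14 without WT, unlike those of numbers 1 and 3, and their genotype label is Wildtype. By the study's methods the knockout lines were made from Dnmt1 loxP/loxP ESCs of strain C57BL/6, Dicer was targeted in these cells with CRISPR/Cas9, and Cre was induced with tamoxifen. Neither the clone nor the day after induction is given in the labels of these 12 libraries, and the background they name differs from the strain in the methods. The labels do not say whether A and B of a number are separate cultures or technical repeats, and if they are repeats, p-values measure technical spread.

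Meg3 and Rian are long noncoding RNAs of the imprinted Dlk1-Dio3 domain, and both are read from the maternal chromosome. On the paternal chromosome, DNA methylation of the domain's control region goes with silence of these noncoding RNAs. The introns of Rian hold C/D box snoRNAs, a class of small nucleolar RNA that carries a box C motif near its 5′ end and a box D motif near its 3′ end and is normally freed from spliced introns without Dicer. MiRNAs, by contrast, are cut from a hairpin by Dicer. Reads in these libraries were limited to 20 to 24 nucleotides, so a snoRNA value counts fragments of the snoRNA and a Rian value counts fragments of any RNA from its interval.

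Rian spans 57.765 kb of the plus strand (NCBIM37, chr12:110842155-110899919), with 21 exons in its full-length transcript. Meg3 spans 30.726 kb upstream of it (NCBIM37, chr12:110779211-110809936), 32.218 kb away on the same strand. Mir341 lies in intron 2 of the full-length Rian transcript and Mir370 in intron 3. All 12 snoRNAs, the 11 SNORD113 copies and AF357355, lie between 27.129 kb and 53.18 kb from the Rian start. Copy 6 lies in an exon and the others in introns of the full-length transcript. Copy 7, in intron 12, is also exonic in a shorter annotated transcript.

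The snoRNA sequences below carry the first pattern in the data, which copies had reads. They were read from the NCBIM37 genome on the plus strand. Capitals mark TGATGA where it occurs in the first 15 bases (box C) and CTGA where it occurs in the last 15 bases (box D). The first group holds the snoRNAs with the most reads and the second holds copies with no read in any library.
SNORD113 copy 7 (chr12:110887827-110887898): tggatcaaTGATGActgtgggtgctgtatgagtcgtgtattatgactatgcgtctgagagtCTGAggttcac
AF357355 (chr12:110892837-110892908): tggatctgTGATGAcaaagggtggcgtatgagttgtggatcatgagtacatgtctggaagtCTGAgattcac
SNORD113 copy 10 (chr12:110894555-110894626): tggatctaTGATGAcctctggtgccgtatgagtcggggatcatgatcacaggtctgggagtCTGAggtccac
SNORD113 copy 4 (chr12:110879232-110879304): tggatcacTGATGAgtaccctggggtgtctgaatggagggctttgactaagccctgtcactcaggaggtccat
SNORD113 copy 9 (chr12:110891243-110891314): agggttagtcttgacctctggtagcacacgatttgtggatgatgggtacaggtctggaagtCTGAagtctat
SNORD113 copy 11 (chr12:110895335-110895406): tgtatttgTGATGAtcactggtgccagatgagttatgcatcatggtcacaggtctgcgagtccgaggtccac

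The arms of the miRNAs, given by RefSeq on GRCm38.p6, are shown with the seed (bases 2 to 8) in capitals, because they are the members that Dicer makes. All 4 were found unchanged in the NCBIM37 sequence of their gene, and no seed was shared.
miR-341-5p: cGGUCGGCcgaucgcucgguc
miR-341-3p: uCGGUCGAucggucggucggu
miR-370-5p: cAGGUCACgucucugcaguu
miR-370-3p: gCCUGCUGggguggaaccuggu

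Of the 12 Rian snoRNAs, 7 carried both boxes in these windows, and the 7 that carried both were the 7 that had reads. The 5 copies with no read in the 12 libraries (2, 4, 5, 9 and 11) each lacked 1 or both box sequences: copies 4 and 11 have box C without box D, copies 2 and 9 have box D without box C, and copy 5 has neither. Reads per copy with both boxes ran from 3 to 142 over all libraries. The same search over 802 windows of 72 bases tiled along Rian found both boxes in 0.249% on the sense strand and in 0 on the opposite strand. The windows did not leave out the snoRNAs and start at fixed steps, not at snoRNA starts. Their rate is thus unlike that of the annotated copies, and nothing is read from it. Downstream of Rian, the domain holds 10 further snoRNAs, of which 5 carried both boxes and all 5 had reads, between 6 and 74. There the match to reads was looser, since 2 of the 5 downstream copies that lacked a box also had reads, with 10 and 6. The downstream copies 2 and 3 share most of their sequence with each other, so reads could be split between them. GC content overlapped between the Rian copies with reads (44% to 54.2%) and those without (41.3% to 53.4%). A missing match says only that these letters are not in these windows. This is a description of 12 sequences and was not tested.

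Reads of the silent copies would have had a single place to map for nearly all of their length. Each stretch of 20 bases in copies 4, 5, 9 and 11 occurs once in the genome. In copy 2, 96.4% of such stretches are unique. The copies that share sequence with other places are copy 3, with 64.8% unique, and copy 6, with 38.2% unique, each with stretches found in up to 3 places. How reads with several positions were placed is not given in the sources used here, so the few reads of copies 3 and 6 are uncertain. Pairs of Rian snoRNAs were 47.4% to 83.6% identical, with a median of 63.4% over 66 pairs, and copies 8 and 10 were the closest pair. No stretch of 20 bases was shared among the Rian features listed. SNORD113 also names 8 copies downstream in the domain and 3 rows on other chromosomes, which had 0 reads.

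Depth limited what could be seen. Libraries held 8710 to 245184 reads, so that 3 reads, the limit a count of 0 allows, corresponded to 12.2 to 344.4 RPM, the unit of all levels below (reads scaled to a common library total). WT 2A (16142 reads) and Dicer/Dnmt1 KO 1B (8710 reads) were the shallowest, and values are given without them where they decide a result. Intervals and limits cover counting error only. Where a group had 0 reads, a fold value put 3 reads in its place and took the other count as exact, so it is approximate and not a bound. The deletions could not be checked from small RNA fragments of the 2 deleted genes. Dnmt1 reads per library numbered 0 to 18 in WT, 8 and 9 in Dnmt1 KO and 2 to 6 with both enzymes lost, and was not lower in Dnmt1 KO than in WT (log2 difference 1.12, limma adjusted p 0.558). Dicer1 had at most 3 reads in any library. Of 10 ESC markers, all had reads in WT, and the list, which is mostly Mir290 to Mir295, summed to 28002 to 88799 RPM in WT, 55192 to 98688 RPM with Dnmt1 lost and 1234 to 3675 RPM with both lost. These are miRNAs, which Dicer makes, and the study reports a depletion of miRNAs in its Dicer/Dnmt1 double-knockout ESCs. Their lower sum therefore cannot be read as a change of cell type. The defining ESC mRNA genes Pou5f1, Nanog, Sox2 and Dppa5a had few reads in any library and do not separate the groups: Pou5f1 had 0 in every library lacking both enzymes but also in WT 2A, WT 2B and Dnmt1 KO B, and the other 3 had reads in all groups or, for Dppa5a, in all but Dnmt1 KO. Of the neural list, 3 of 8 genes are in the table, and their summed reads were 0 in every library but 1, which had 1 read.

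Meg3, the noncoding RNA nearest the control region of the domain, left almost no small RNA in any genotype. It had 0 reads in the 6 WT libraries. Dnmt1 KO A had 0 and B had 1 read (9.29 RPM). The Dicer/Dnmt1 KO libraries had 0, 0, 1 and 4 reads, or at most 26.5 RPM. The groups overlapped at 0, and Meg3 did not pass the filter on low values for testing. Over the pooled WT libraries, 0 reads allow a level of up to 3.93 RPM. The 5 reads of Dicer/Dnmt1 KO and the 1 read of Dnmt1 KO gave a ratio of pooled RPM of 3.54 (95% exact interval 0.397 to 168), which cannot show a difference at this depth. Per length, Meg3 had 0.186 RPM per kb in Dnmt1 KO and 0.658 in Dicer/Dnmt1 KO.

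Rian small RNA was nearly absent in WT and was counted in every library without Dnmt1. In WT the lowest, median and highest levels were 0, 0 and 13.8 RPM, from 2 reads each in 1A and 1B and none in the other libraries. In Dnmt1 KO, Rian stood at 798 RPM in A (54 reads) and 1162 RPM in B (125 reads). Both knockout libraries lay far above every WT library. The means were 3.66 ± 5.94 RPM (SD, n = 6) in WT and 979.8 ± 257.2 RPM (SD, n = 2) in Dnmt1 KO. Pooled over each group, the ratio was 195 (95% exact interval 74.7 to 722). On the scaled log2(RPM + 10) values, Rian was higher by 6.66 (SE 0.61, limma adjusted p 1.74e-05). Among all 683 features tested, 6.59% were called higher, 0.293% lower and 6.88% in either direction in this comparison. With at most 2 reads in any WT library, Rian passed the filter for testing through the knockout libraries and had to lie above WT. The p-values of members against WT, here and below, carry that limit.

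With Dicer also lost, Rian remained high. The Dicer/Dnmt1 KO libraries gave 1837, 689, 1356 and 1241 RPM, from 45, 6, 86 and 187 reads. All 4 lay above all 6 WT libraries, and they spanned the Dnmt1 KO values on both sides. The mean was 1281 ± 471.7 RPM (SD, n = 4), and the pooled ratio to WT was 250 (95% exact interval 96.6 to 922). The log2 difference from WT was 5.98 (SE 0.48, limma adjusted p 7.77e-07), in a comparison where 5.12% of tested features were called higher, 19.0% lower and 24.2% in either direction. Between the knockouts, Rian differed by -0.68 (SE 0.65, 95% interval -2.07 to 0.72, limma adjusted p 0.618), and the interval runs from a marked fall to a small rise. Its sign turned with the scaling: on library reads alone it was 0.32 (limma adjusted p 0.737). The libraries' scaling factors, 0.733 and 0.763 for Dnmt1 KO but 1.01 to 1.96 where Dicer was lost too, are left out in that setting, which moves the median log2 difference of all tested features by 0.91.

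**Figure D1:**
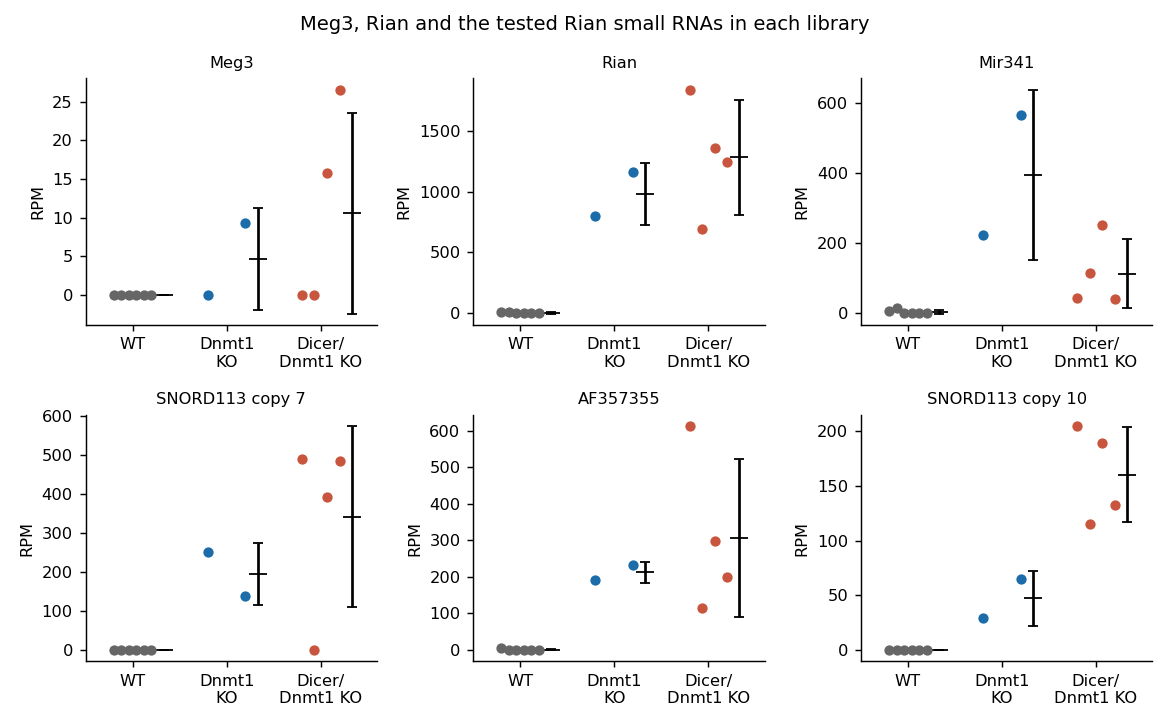
Levels of Meg3 and of the 5 members that passed the filter, in RPM without scaling factors, with 1 point per library in WT (6), Dnmt1 KO (2) and Dicer/Dnmt1 KO (4). Black bars are the mean and SD, and each panel has its own axis. Rian is at 0 to 13.8 RPM in WT and at 689 to 1837 RPM in the 6 knockout libraries, whereas Meg3 stays at or below 26.5 RPM.

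The summed markers of another cell type were also higher in the knockouts. The fibroblast and feeder cell list of 10 genes summed to 4337 to 8152 RPM in WT, 21706 to 25677 RPM with Dnmt1 lost and 8447 to 26203 RPM with both enzymes lost. Nearly all of it was Mir21 and Mir143. Mir21 was called higher in Dnmt1 KO, by 1.73 (SE 0.41, limma adjusted p 0.0216), and was -0.66 from WT in Dicer/Dnmt1 KO (SE 0.33, limma adjusted p 0.186), and Mir143 was called higher in both knockouts, by 3.63 (SE 0.70, limma adjusted p 0.00506) and 2.95 (SE 0.55, limma adjusted p 0.0009). The defining collagens Col1a1, Col1a2 and Col3a1 had 0 reads in all WT and Dnmt1 KO libraries and between 0 and 3 reads each in Dicer/Dnmt1 KO libraries, and Mir199a-1 had 0 in all. In 5 of 10 genes of the list reads were seen in WT, in 5 in Dnmt1 KO and in 9 in Dicer/Dnmt1 KO. The study kept ESCs with or without feeder cells, and the part of other cells in the Rian result was not tested. In bulk RNA, fewer cells of a type and less RNA per cell cannot be told apart.

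Pooled by group, most Rian reads came from a small part of its length. The 17 small features annotated inside it cover 1.333 kb, or 2.31% of the interval, and 3 of the 17 (SNORD112, Mir1188 and AC152063.1) are not members and had 0 reads. In Dnmt1 KO this small part gave 719 RPM per kb against 1.11 RPM per kb for the rest of Rian. In Dicer/Dnmt1 KO the values were 779.5 RPM per kb and 4.80 RPM per kb. The rest of Rian thus had per-length levels nearer to those of Meg3 than to its own small RNAs, at 5.99 times the Meg3 level in Dnmt1 KO and 7.30 times in Dicer/Dnmt1 KO, both resting on 5 Meg3 reads or fewer. The Rian row is therefore mostly a sum of its members, and its test is not independent of theirs.

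The makeup of the Rian reads differed between the knockouts. In Dnmt1 KO, Mir341 and Mir370 made 29.6% of the 54 Rian reads of A and 52.0% of the 125 reads of B (95% Wilson intervals 19.1% to 42.8% and 43.3% to 60.6%). In Dicer/Dnmt1 KO they made 2.22%, 16.7%, 18.6% and 3.21%, with Wilson intervals of 0.393% to 11.6%, 3.01% to 56.4%, 11.8% to 28.1% and 1.48% to 6.82%. All 4 shares were below both Dnmt1 KO shares, although the interval of 1B, which rests on 6 reads, reaches above both. The interval of 2A also overlaps that of Dnmt1 KO A, and the difference was not tested. The snoRNA share was 64.8% and 41.6% in Dnmt1 KO. It was 75.6%, 69.8% and 73.3% in Dicer/Dnmt1 KO 1A, 2A and 2B, and 2 of 6 reads in 1B.

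Reads of Rian outside every annotated small RNA also took a larger share in the Dicer/Dnmt1 KO libraries than in Dnmt1 KO, which was not tested. They were 3 and 8 reads in Dnmt1 KO, 5.56% and 6.40% of Rian reads. In Dicer/Dnmt1 KO they were 10, 3, 10 and 44 reads, or 22.2%, 50.0%, 11.6% and 23.5%, and in WT there were none. The Wilson intervals of 2A (6.44% to 20.1%) and Dnmt1 KO B (3.28% to 12.1%) overlap. Their unscaled level was 44.3 and 74.3 RPM in the Dnmt1 KO libraries and 408, 344, 158 and 292 RPM in those lacking both enzymes. These levels did not overlap, but how many of all features did the same was not counted, so nothing is read from it. Pooled, the ratio between the knockouts was 4.32 (95% exact interval 2.26 to 9.06, counting error only). On the same unscaled reads the reference snoRNA Snord68, described below, had a ratio of 4.30 (2.91 to 6.56). Divided by the scaling factors, the nearest libraries were 97.4 RPM in Dnmt1 KO B and 101.3 RPM in 2A. Fragments of any transcript over the interval would count among these reads.

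**Figure D2:**
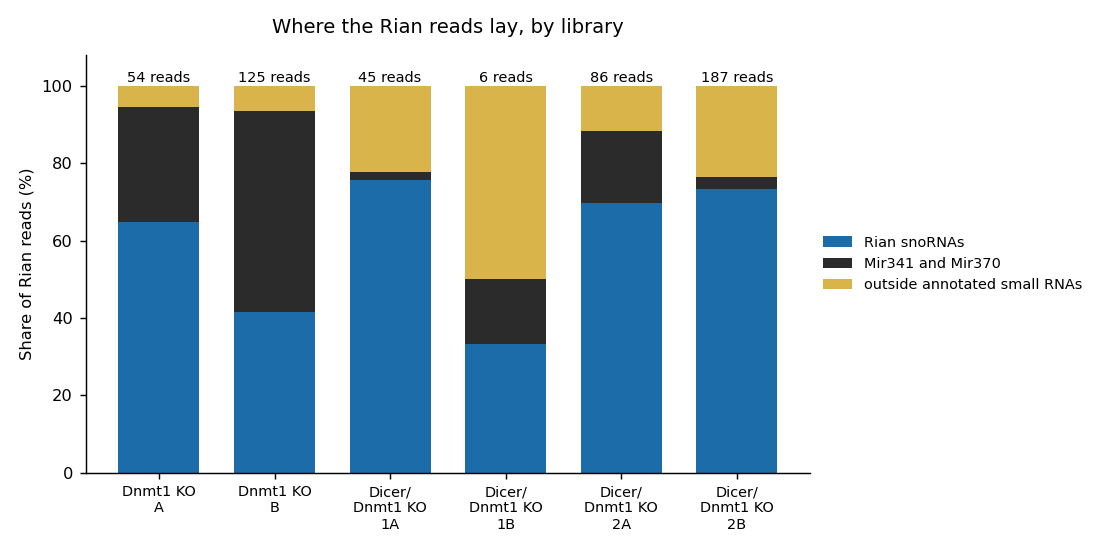
Share of Rian reads, in percent, lying in its 12 snoRNAs, in Mir341 and Mir370, or outside annotated small RNAs, as stacked bars for the 2 Dnmt1 KO and 4 Dicer/Dnmt1 KO libraries, with the number of Rian reads above each bar. The miRNA part is 29.6% and 52.0% in Dnmt1 KO and at most 18.6% in Dicer/Dnmt1 KO.

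Among the members, 5 of 16 passed the filter (Rian, Mir341, AF357355 and SNORD113 copies 7 and 10). WT libraries had at most 2 reads of any of them, so they passed through the knockout libraries and had to lie above WT. All 5 were called higher than WT in both knockouts, beside 6.59% and 5.12% of tested features, and nothing is read from that count. On unscaled RPM, 8 of 16 members in Dnmt1 KO and 4 of 16 in Dicer/Dnmt1 KO lay above every WT library, as did 17.1% and 10.4% of tested features, while 5.86% and 12.9% of tested features lay below every WT library. The 16 members include 11 that failed the filter and the tested features do not, so these are unlike sets. In Dnmt1 KO, Mir370 and copies 3 and 8 are counted on 1 to 4 reads per library. In Dicer/Dnmt1 KO, Mir341, AF357355 and copy 10 are counted on 1 read in the shallow library 1B. Mir341 also had 1 read in 1A, while WT 1B had 2. Between the knockouts, 1 of the 5 was called lower, Mir341, beside 21.7% of tested features, and none was called higher, beside 1.17%, or 22.8% in either direction.

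Mir341 was the only one of the 5 tested members called between the knockouts. Its lowest, median and highest WT levels were 0, 0 and 13.8 RPM. Dnmt1 KO A and B had 222 and 567 RPM (15 and 61 reads). The libraries lacking both enzymes had 40.8, 115, 252 and 39.8 RPM, from 1, 1, 16 and 6 reads. On unscaled RPM the Dicer/Dnmt1 KO libraries lay above WT, and their highest (2A) overlapped the lower Dnmt1 KO library. For 1A and 1B this rests on 1 read each, while the deeper WT 1B had 2. Mir341 rose by 5.30 in Dnmt1 KO (SE 0.69, limma adjusted p 0.000148) and by 2.44 in Dicer/Dnmt1 KO (SE 0.55, limma adjusted p 0.00375) on the scaled log2 values. The second of these was lost with no filter (limma adjusted p 0.102) and with the library number as a replicate block (2.41, limma adjusted p 0.0753). It fell by 2.86 from Dnmt1 KO to Dicer/Dnmt1 KO (SE 0.73, limma adjusted p 0.00892), and the pooled ratio was 0.224 (95% exact interval 0.135 to 0.358). That call was lost without Dnmt1 KO B (-2.41, limma adjusted p 0.146), on library reads alone (-1.94, limma adjusted p 0.0947), with a pseudocount of 1 and with no filter.

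Mir370, the second miRNA of Rian, was near the limit of detection. Dnmt1 KO A and B had 1 and 4 reads (14.8 and 37.2 RPM), and the other 10 libraries had none. Over the Dicer/Dnmt1 KO group, 0 reads allow up to 12.1 RPM. That is 0.425 times the pooled Dnmt1 KO level, whose 5 reads were taken as exact, so it is not a bound on the ratio. Against WT, the Dnmt1 KO level was 7.25-fold higher with 3 reads put in for the WT group, which is not a bound either. Mir370 was tested only with the filter left out, where it was called lower with both enzymes lost than in Dnmt1 KO (-2.06, SE 0.58, limma adjusted p 0.0422) and was at 2.06 in Dnmt1 KO against WT (SE 0.55, limma adjusted p 0.0524).

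SNORD113 copy 7 was the most read snoRNA of Rian, with 142 reads. It had 0 reads in every WT library. Levels in Dnmt1 KO were 251 RPM in A and 139 RPM in B. With Dicer also lost they were 490.0, 0, 394 and 484 RPM. Library 1B, with 0 reads, overlapped WT, while the other 3 lay above both Dnmt1 KO libraries. Over the pooled reads, with 3 reads put in for WT, copy 7 was 46.4-fold higher than WT in Dnmt1 KO and 113.1-fold higher in Dicer/Dnmt1 KO. The limma calls were 4.70 (SE 1.11, adjusted p 0.0206) and 3.81 (SE 0.88, adjusted p 0.00467). The first of these was lost without Dnmt1 KO A (adjusted p 0.297) or B (adjusted p 0.151). Between the knockouts the scaled difference was -0.90 (SE 1.18, 95% interval -3.44 to 1.65, limma adjusted p 0.737), and it turned to 0.37 without Dicer/Dnmt1 KO 1B (limma adjusted p 0.756).

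AF357355, a snoRNA gene in intron 16, was next with 104 reads. WT 1A had 1 read and the other 5 WT libraries none. Dnmt1 KO A and B had 192 and 232 RPM. The Dicer/Dnmt1 KO libraries had 612, 115, 299.6 and 199 RPM, from 15, 1, 19 and 30 reads. On unscaled RPM every knockout library was above every WT library, and the knockouts overlapped each other. For 1B this rests on 1 read in a shallow library, the same number of reads as in WT 1A. AF357355 rose by 4.78 (SE 0.62, limma adjusted p 0.000148) in Dnmt1 KO and by 4.09 (SE 0.49, limma adjusted p 1.79e-05) in Dicer/Dnmt1 KO. The difference between the knockouts was -0.70 (SE 0.66, 95% interval -2.11 to 0.72, limma adjusted p 0.616) and turned to 0.27 on library reads alone.

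SNORD113 copy 10 was at 0 reads in WT. It had 29.6 and 65.1 RPM in Dnmt1 KO A and B, from 2 and 7 reads. With Dicer also lost it had 204, 115, 189 and 133 RPM, from 5, 1, 12 and 20 reads. On unscaled RPM its 3 groups did not overlap, which rests on 1 read in 1B and 2 reads in Dnmt1 KO A. Divided by the scaling factors, 1B (58.7 RPM) fell between the Dnmt1 KO libraries (40.3 and 85.2 RPM). It was higher than WT by 2.79 in Dnmt1 KO (SE 0.53, limma adjusted p 0.00455), a call that rests on B (limma adjusted p 0.225 without it), and by 3.50 in Dicer/Dnmt1 KO (SE 0.42, limma adjusted p 1.73e-05). Between the knockouts the scaled difference was 0.71 (SE 0.56, 95% interval -0.49 to 1.92, limma adjusted p 0.514).

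**Figure D3:**
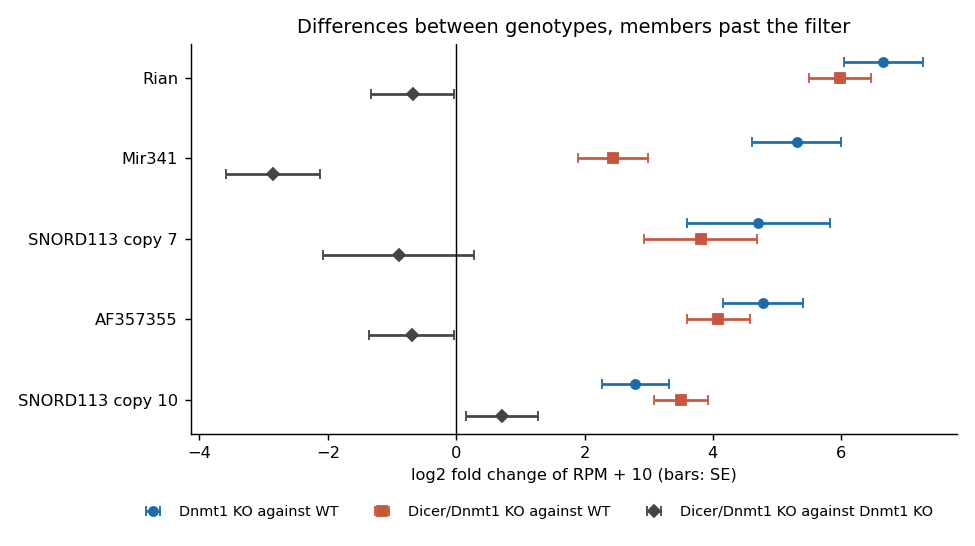
Log2 differences of scaled RPM + 10 for the 5 members that passed the filter, in the 3 comparisons, with bars of 1 SE. Mir341 is the only one of the 5 called between the knockouts, at -2.86.

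The other snoRNA copies with reads were rare. Copy 3 had 14 reads, copy 6 had 7, copy 8 had 4 and copy 1 had 3, with none in WT. With 3 reads put in for WT, copy 3 was 11.3-fold higher in Dicer/Dnmt1 KO than in WT and copy 6 was 5.14-fold higher, which are not bounds. Copy 1 was read only in Dicer/Dnmt1 KO 1A and 2B, with 1 and 2 reads. None of these 4 passed the filter.

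Copy 7 and AF357355 held most of the snoRNA reads in both knockouts. In Dnmt1 KO, AF357355 made 43.7% of 87 reads (95% Wilson interval 33.7% to 54.1%) and copy 7 36.8% (27.4% to 47.3%). In Dicer/Dnmt1 KO, copy 7 made 47.2% of 233 reads (40.9% to 53.6%) and AF357355 27.9% (22.5% to 34.0%). Copy 10 came next in both, with 10.3% and 16.3%. The order of the top pair was not stable between libraries. Copy 7 led AF357355 in Dnmt1 KO A (17 against 13 reads) and trailed it in B (15 against 25). With both enzymes lost, AF357355 led in 1A (15 against 12) and 1B (1 against 0) and copy 7 led in 2A (25 against 19) and 2B (73 against 30). Without 2B the pooled reads of that group were 37 for copy 7 and 35 for AF357355. The 3 leading snoRNAs all lay in the distal part of Rian, from 45.672 kb after its start onward, among copies with few or no reads (8, 9 and 11).

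**Figure D4:**
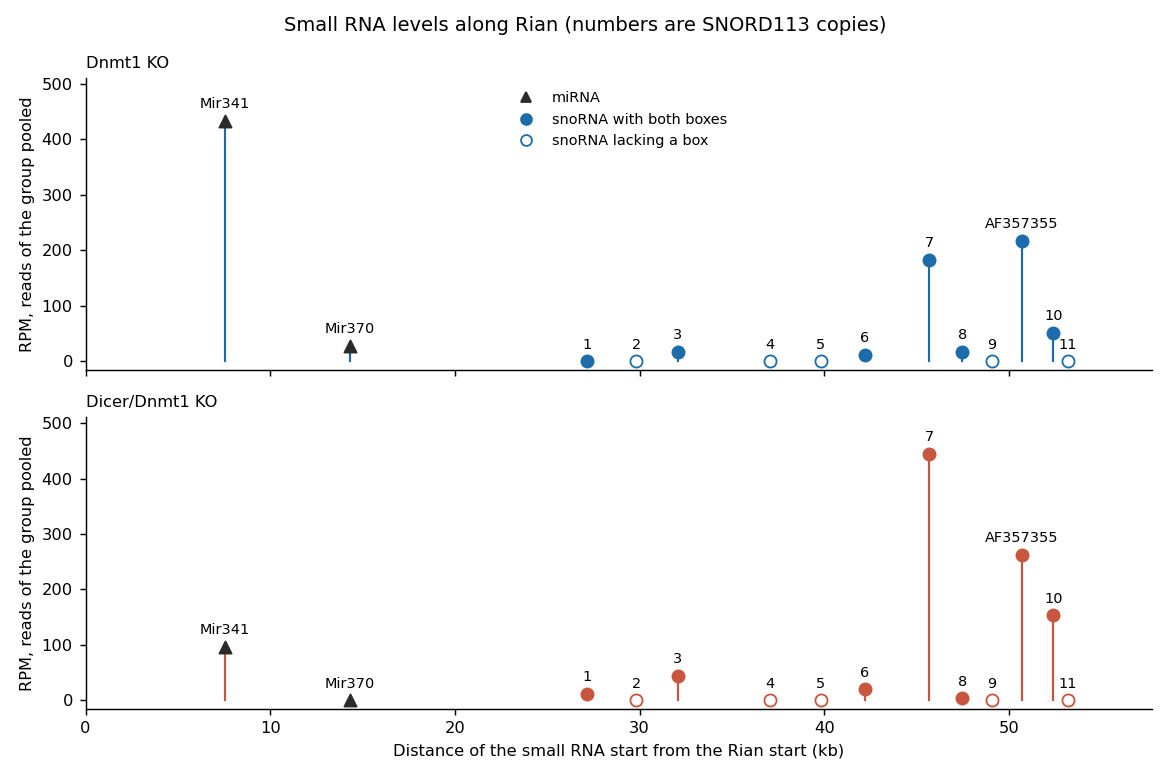
Pooled level in RPM of each miRNA (triangles) and snoRNA (circles) against its distance from the Rian start in kb, for Dnmt1 KO (top) and Dicer/Dnmt1 KO (bottom). Filled circles are snoRNAs with both box sequences and open circles lack at least 1. The 5 open circles are at 0 in both groups, and the tallest snoRNAs are copy 7, AF357355 and copy 10.

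Summed over the 12 Rian snoRNAs, WT had 1 read in all, and the levels that follow are RPM without scaling factors. Dnmt1 KO A and B had 517 and 483 RPM. The Dicer/Dnmt1 KO libraries had 1388, 229.6, 946 and 909 RPM. Apart from 1B, with 2 reads, the libraries lacking Dicer were above those lacking Dnmt1 alone, and the pooled ratio was 1.90 (95% exact interval 1.48 to 2.46, counting error only). Divided by the scaling factors, the Dnmt1 KO libraries stood at 706 and 633 RPM and the others at 815, 117, 608 and 900.0 RPM, so that the groups overlapped, and the sum is not shown to differ. The 10 snoRNAs downstream of Rian gave 222 and 335 RPM in Dnmt1 KO and 857, 574, 725 and 670.2 RPM in Dicer/Dnmt1 KO, a pooled ratio of 2.40 (1.75 to 3.35). With scaling factors these groups overlapped too, at 302 and 438 RPM against 503, 294, 466 and 663.5 RPM. Snord68, a snoRNA of another chromosome used as a reference, had a pooled ratio of 4.30 (2.91 to 6.56) between the same groups. Its ratio to WT was 0.3001 (0.20 to 0.435) in Dnmt1 KO and 1.29 (1.08 to 1.54) with both enzymes lost, so this reference was itself low in unscaled Dnmt1 KO. On scaled values Snord68 differed by 1.08 (SE 0.61, limma adjusted p 0.307), and the 162 tested snoRNAs outside the domain had a median difference of 0.40, against -0.16 for all 683 features.

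Measured against the snoRNAs of the same host, Mir341 was lower in most libraries without Dicer. Mir341 reads per Rian snoRNA read were 0.429 and 1.17 in Dnmt1 KO A and B. They were 0.0294, 0.267 and 0.0438 in Dicer/Dnmt1 KO 1A, 2A and 2B, each below both Dnmt1 KO values. Library 1B had 0.5, from 1 and 2 reads, and is the 1 overlap. This ratio does not depend on library size or scaling, and the difference was not tested.

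**Figure D5:**
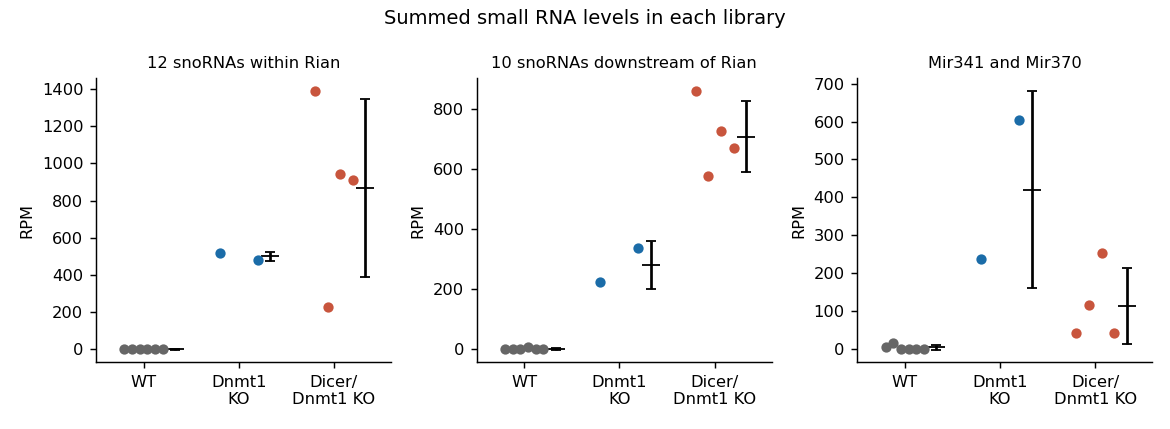
Summed levels in RPM, 1 point per library with the mean and SD in black, for the 12 snoRNAs of Rian, the 10 snoRNAs downstream and the pair Mir341 and Mir370. On these unscaled levels both snoRNA sums have most Dicer/Dnmt1 KO libraries above Dnmt1 KO, and the miRNA sum has its highest value, 604 RPM, in Dnmt1 KO.

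The rest of the domain gives the setting for these values. From the start of Dlk1 to the end of Dio3, 55 miRNAs other than Mir341 and Mir370 are annotated, and 13 passed the filter. The 57 miRNAs of the domain summed to at most 185.9 RPM in any WT library, so these 13 passed almost wholly through the knockout libraries, and nothing is read from their calls against WT. All 13 were called higher in Dnmt1 KO than in WT, with a median log2 difference of 6.51, beside 6.59% of all tested features. In Dicer/Dnmt1 KO, 7 of the 13 were called higher than WT (median 2.37), beside 5.12%. Between the knockouts, 11 of the 13 were called lower with Dicer lost (median -4.90), beside 21.7%. The filter asks for 111 RPM in 2 libraries, which the 2 Dnmt1 KO libraries could meet alone. It thus favoured miRNAs high in Dnmt1 KO, and nothing is read from this count either. The median over all tested features was 0.13, -0.09 and -0.16 in the 3 comparisons. Mir341 fell by less than the median of these 13 miRNAs, but the filter bears on that median, and the gap was not tested. Of 10 downstream snoRNAs, 2 passed, AF357428 and AF357341, and neither was called between the knockouts (-0.00, SE 0.60, limma adjusted p 1.00, and 0.28, SE 1.03, limma adjusted p 0.911).

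Among the protein-coding and host genes, Rtl1 and Mirg, a further noncoding host of miRNAs, were called lower with Dicer lost. Rtl1 fell by 4.74 (SE 1.08, limma adjusted p 0.00395) and Mirg fell by 4.47 (SE 0.96, limma adjusted p 0.00262) between the knockouts. Rtl1 lies on the minus strand, and its 6411 reads compare with 6410 reads for the 6 plus-strand features inside it, equal in 11 of 12 libraries, so its row took in reads of the plus strand. For Rian and Meg3, sense and antisense fragments cannot be told apart for the same reason. Since nearly all Rtl1 reads match those of the features inside it, the Rtl1 test is not separate from theirs. Mirg was counted over its interval too, so reads of miRNAs inside it would enter its row, and its test is not shown to be separate. Dlk1 had a total of 1 read over the 12 libraries, in WT 3B, and Dio3 and Mir770, a miRNA gene inside the Meg3 interval, had 0. Rian reads were 0.0244 and 0.0421 reads per Mir127 read in Dnmt1 KO A and B, and 0.833, 0.857, 0.248 and 1.72 with both enzymes lost, where Mir127 is a miRNA cut from the strand opposite Rtl1.

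The profile most like that of Rian over the 12 libraries, by Pearson's r of scaled log2(RPM + 10), was that of AF357355 (r = 0.99), whose reads are part of the Rian count, then SNORD113 copy 10 (r = 0.97) and, outside Rian, AF357428 (r = 0.95). Mir341 had r = 0.86. Outside the domain the 5 highest were Mirlet7i (r = 0.91), Mir143 (r = 0.88), the lincRNA D230004N17Rik (r = 0.87), the miRNA CT009696.2 with 17 reads (r = 0.86) and Mir181a-2 (r = 0.85). The points share libraries, depth and genotype, and the values are given as a description.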

How the data were processed

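Small RNA libraries of 20 to 24 nucleotide reads were trimmed (Trim Galore 0.3.5), mapped to NCBIM37 (Bowtie2 2.2.6) and counted per gene in SeqMonk by the authors, as the submitters' processing notes and the methods say. The deposited values are log2 RPM, made by the authors, with 0 reads written as 0.9 read. Setting each column's lowest value to 0.9 read returned whole reads for 100% of values (tolerance 0.05 read). Another 89 value columns were not used. Gene types came from the GENCODE annotation on NCBIM37, which matched 32101 of 32101 rows. Features with 111 RPM (10 reads at the median depth) in 2 libraries and 15 reads in all were kept, giving 683. TMM factors, a trimmed mean of log ratios, scaled the libraries. The 3 groups entered 1 fit of log2(RPM + 10) in limma (version 3.58.1, under R 4.3.3), using an intensity trend, Benjamini-Hochberg adjustment and a threshold of 0.05. Fold changes on this scale understate those of low features. The fit was tested on simulated data. Per-sample depth was 8710 to 245184 reads. Named features were every member, the domain's genes by position and the 5 outside features most like Rian. Members and lists were chosen with earlier results of these data known. Alternatives varied scaling, pseudocount, filter, weights, libraries and blocks.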

Additional observations from a re-analysis of the deposited data

Results flagged for a closer look

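By Dixon's criterion for a single extreme value, 17 groups of member levels were examined and 4 values stood apart. All 4 rest on 1 or 2 reads. The chance rate of about 1 in 20 groups holds for normally distributed values and not for counts near 0. A group with reads in a single library is always flagged, as for AF357355, the summed snoRNAs and copy 8 below. Nothing is read from the number of flags. Mir341 was 13.8 RPM in WT 1B, from 2 reads, with the next WT library at 4.08 RPM. AF357355 was 4.08 RPM in WT 1A, from 1 read, with the other WT libraries at 0, and the summed Rian snoRNAs had the same 4.08 RPM in WT 1A from that read. SNORD113 copy 8 was 6.64 RPM in Dicer/Dnmt1 KO 2B, from 1 read, with the other libraries of that group at 0.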

How the results depend on the processing

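The calls of Rian against WT were kept in all alternatives run, but Rian passed the filter through the knockout libraries, so this is not separate support. The log2 difference was 4.64 to 9.13 over 24 alternatives in Dnmt1 KO (limma adjusted p 1.53e-06 to 0.00576) and 3.998 to 8.44 over 25 in Dicer/Dnmt1 KO (2.96e-08 to 0.00104), the extremes coming from pseudocounts of 50 and 1. Leaving out 1 library gave 6.58 to 6.997 and 5.77 to 6.29. Between the knockouts no alternative called Rian (limma adjusted p 0.254 to 1), leaving out 1 library gave -0.95 to -0.30, and the sign turned on library reads alone (0.32). AF357355 turned there as well (0.27). SNORD113 copy 7 turned between the knockouts with A and B summed (0.26), without Dicer/Dnmt1 KO 1B (0.37) and without both libraries under 20000 reads (0.37), an alternative chosen after seeing the data, and it ranged from -1.56 to 0.37 on leaving out 1 library. The cause was not tested. Mir341 lost its call between the knockouts on library reads alone, with a pseudocount of 1 (-3.08, limma adjusted p 0.169), with no filter (-2.83, limma adjusted p 0.228) and without Dnmt1 KO B, and it lost its call in Dicer/Dnmt1 KO against WT with no filter (2.34, limma adjusted p 0.102). It did not pass the filter once A and B were summed. SNORD113 copy 7 lost its call in Dnmt1 KO with the pair A and B as a random block (limma adjusted p 0.0813), and copy 10 with no filter (limma adjusted p 0.226) and with A and B summed (limma adjusted p 0.305). Features called in Dnmt1 KO against WT numbered 47. They were 31 with a pseudocount of 1, 80 with voom weights, 12 with A and B summed, 30 with the random block, 181 without both WT libraries of number 2, 121 without the libraries under 20000 reads, and 15 to 97 on leaving out 1 library (15 without either Dnmt1 KO library, 97 without WT 2A). Same-numbered WT and Dicer/Dnmt1 KO libraries did not deviate together (r = -0.28 to 0.11). The shallow WT 2A and Dicer/Dnmt1 KO 1B are among them, so these values do not settle whether the numbers pair the libraries. With the number as a replicate block, Rian was 5.94 (limma adjusted p 0.000659), SNORD113 copy 7 3.90, AF357355 4.18, copy 10 3.65, and Mir341 2.41 (limma adjusted p 0.0753), with 117 features called against 165. Count-model tests were not run, since the deposited values are log2 RPM. With A and B summed, Dnmt1 KO is 1 sample, assumed to vary like the other groups.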
